A study of Mus musculus with 12 samples.

Results

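The phagocyte NADPH oxidase was followed through 5 of its subunit genes, Cybb, Cyba, Ncf1, Ncf4 and Rac2, in macrophages kept in a dicarboxylic acid. The genes were taken by name from a list of oxidase subunits, though the list was chosen with earlier results of these data known. Each of the 5 was found once among the 32285 genes of the count table and had enough reads to be tested. Poly(A) RNA was sequenced from wild-type mouse bone marrow-derived macrophages, cells cultured out of marrow precursors. The control group (M) stayed in medium alone, and each other group received 1 acid, namely IA (itaconic), MetSA (methylsuccinic) or MA (malonic), at 5 mM, added from a 50 mM stock in RPMI medium, for 16 h. Each of the 4 groups held 3 biological replicates, 12 libraries in all. The labels do not tie replicates to animals, so p-values measure the spread between these samples, which may be technical. The same replicate numbers recur in every group, and the main fit does not pair libraries by them. IA and MetSA share a branched carbon skeleton and differ in a double bond, which MetSA lacks, while MA is an unbranched, shorter diacid.

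The oxidase moves electrons from NADPH in the cytosol across a membrane to oxygen and makes superoxide in phagosomes or outside the cell. Its electron-carrying core is a membrane heterodimer of gp91phox (Cybb, also called NOX2) and p22phox (Cyba), and it is idle until cytosolic subunits, among them p47phox (Ncf1) and p40phox (Ncf4), and a GTP-bound Rac protein join it. Loss of the complex causes chronic granulomatous disease, in which phagocytes take up microbes but kill them poorly.

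The libraries held 46892488 to 54252486 counts, of which the 5 genes together took 0.233% to 0.378%, and 14113 genes were tested. All 10 macrophage markers were tested. Single genes are given in CPM, counts scaled to a common library size with a correction factor for each library (TMM). Marker sums here and below are CPM on total counts, without that factor. The macrophage sum was 27927 to 30540 CPM in M, 25279 to 27337 in IA, 30857 to 32739 in MA and 27513 to 34033 in MetSA. The factor was 1.05 to 1.07 in M and 0.927 to 0.935 in IA, so the order of M and IA in this sum depends on it. Lyz2, the largest of the 10, had 17120 ± 946 TMM-scaled CPM in M and 14970 ± 1152 in IA (SD, n = 3). That difference did not pass the edgeR test described below (adjusted p = 0.131). At an adjusted p under 0.05, 6 of the 10 markers were higher and 1 was lower after IA, beside 17.9% and 17.3% of all genes. T and NK, mast and erythroid markers had at most 22 counts in any library. Of the other lists, Ly6g (0 to 12 counts), Pax5 (0 to 4) and Cd79a (0 to 26) were near 0, but Ngp (1180 to 2104), Ltf (854 to 1464), Ighm (3879 to 8476) and the stromal Col1a1 (154 to 796) were not. The B cell markers summed to 136 to 179 CPM in M, 82.8 to 123 after IA, 94.8 to 108 after MA and 97.2 to 153 after MetSA. The 5 dendritic markers summed to 1.67 to 2.91 CPM in M, 6.31 to 7.47 after IA, 2.53 to 3.40 after MA and 2.72 to 4.75 after MetSA. Among them Xcr1 rose from 0.223 ± 0.055 CPM to 4.86 ± 0.27 with IA (4.42, adjusted p = 3.59e-10), 1.97 ± 0.31 with MetSA (3.12, adjusted p = 1.4e-07) and 0.443 ± 0.12 with MA (0.98, adjusted p = 0.0373). The part of these markers in the results below was not tested. MetSA replicate 3 stood apart from the other MetSA libraries on the third principal component of log2 CPM (-32.7, against -2.46 and -8.90), and 1.28% of its counts were mitochondrially encoded, against 0.759% and 0.833%. That share was 1.15% to 1.36% in M, 1.05% to 1.12% in MA and 0.673% to 0.811% in IA. A bulk library cannot tell fewer cells of a type from less RNA per cell.

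The members lie on 4 chromosomes, at chrX:9435252-9487771 on the minus strand (Cybb), chr8:122424776-122432930 minus (Cyba), chr5:134220053-134229625 minus (Ncf1), chr15:78244801-78262580 plus (Ncf4) and chr15:78559167-78572783 minus (Rac2), in GRCm38 (mm10) coordinates of GENCODE M21. None of their transcripts shared a 100-base stretch with another gene. Exons of Ncf1 overlap those of Gtf2ird2 on the opposite strand over 408 bases. Gtf2ird2 had 671 to 968 counts a library against 14237 to 24252 for Ncf1. RefSeq promoter sequences (GRCm38.p6) were at hand for 3 members, and they are shown beside their different responses, a graded rise (Cybb), an even rise (Ncf1) and no call (Cyba). Each run is the 250 bases before the RefSeq start, 5′ to 3′ on the gene's strand. For Cybb that start lies inside the GENCODE span, whose upstream end is at 9487771. Capitals mark matches on either strand to the core of the interferon-stimulated response element (ISRE, a pair of GAAA words with any pair of bases between them) or to the interferon-gamma activated sequence (GAS, TTCNNNGAA). The site bound by PU.1, a transcription factor of myeloid cells, was searched only as the letters GAGGAA, which were not found in these windows. Other forms of that site were not looked for.
Cybb, chrX:9469325-9469574: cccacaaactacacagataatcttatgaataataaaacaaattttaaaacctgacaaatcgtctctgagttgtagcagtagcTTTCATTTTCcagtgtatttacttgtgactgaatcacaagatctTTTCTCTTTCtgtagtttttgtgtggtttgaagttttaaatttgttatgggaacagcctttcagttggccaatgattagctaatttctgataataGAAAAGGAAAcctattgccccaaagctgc
Ncf1, chr5:134229626-134229875: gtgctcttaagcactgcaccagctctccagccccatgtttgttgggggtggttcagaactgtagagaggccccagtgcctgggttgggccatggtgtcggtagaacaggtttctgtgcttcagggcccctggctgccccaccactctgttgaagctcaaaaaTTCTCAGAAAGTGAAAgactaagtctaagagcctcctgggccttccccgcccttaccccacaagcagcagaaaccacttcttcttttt
Cyba, chr8:122432941-122433190: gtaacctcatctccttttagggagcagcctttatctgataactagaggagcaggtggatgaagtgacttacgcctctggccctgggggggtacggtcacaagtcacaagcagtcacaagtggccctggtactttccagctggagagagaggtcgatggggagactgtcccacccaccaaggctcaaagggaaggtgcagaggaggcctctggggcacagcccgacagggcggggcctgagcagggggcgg
Cybb held 3 ISRE cores, from -168 to -159, -124 to -115 and -29 to -20 relative to the start. Ncf1 held a GAS element from -88 to -80 that runs into an ISRE core from -82 to -73, and Cyba held neither. An ISRE core was present in 2.98% of 32851 RefSeq promoter windows of this length, a GAS element in 7.02% and the PU.1 letters in 23.3%. A match of letters is not a bound site, and the part of these matches in the responses was not tested.

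Cybb, the catalytic subunit, rose after every acid and rose most after IA. Its level was 1194, 1471 and 1360 CPM in M replicates 1 to 3, against 2508, 2501 and 2810 in IA, 2197, 2273 and 2173 in MetSA and 1678, 1671 and 1823 in MA. All 9 treated libraries lay above the 3 M libraries, and the 4 groups did not overlap one another. Against M the level was 1.94-fold higher after IA (log2 fold change 0.96, SE 0.07, adjusted p = 4.21e-09), 1.65-fold higher after MetSA (0.72, SE 0.07, adjusted p = 4.2e-07) and 1.28-fold higher after MA (0.36, SE 0.07, adjusted p = 0.00102). The mitochondrial share of counts fell in the same order of group means as Cybb rose, and its part in this result was not tested. MetSA replicate 3, with the high share, had 2173 CPM of Cybb against 2197 and 2273 in the other MetSA libraries. These and all later adjusted p-values are from edgeR's quasi-likelihood F-test, Benjamini-Hochberg corrected across the genes tested.

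Cyba, the membrane partner that stabilises gp91phox and carries the docking site for p47phox, did not pass the test against M after any acid. It had 411, 410 and 459 CPM in M, against 433, 420 and 419 with IA. It had 393, 414 and 456 CPM with MA and 498, 433 and 372 with MetSA, so the groups overlapped throughout on this scale. As TPM, the read density used further below, all IA libraries (1403 to 1486) lay below all M libraries (1572 to 1735). The 95% intervals of the log2 difference from M were -0.19 to 0.17 for IA, -0.20 to 0.16 for MA and -0.15 to 0.21 for MetSA, each ending below the Cybb estimate for the same acid. The spread within MetSA was the widest, with replicate 3 lowest.

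Ncf1, the organiser subunit whose phosphorylation starts assembly, rose by a similar amount after each acid. Its level was 287, 308 and 316 CPM in M, against 417, 455 and 465 with IA, 448, 459 and 467 with MA and 444, 432 and 440 with MetSA. Every treated library lay above every M library, and the treated values spanned only 417 to 467 CPM. The log2 fold changes were 0.55 for IA (SE 0.06, adjusted p = 3.93e-07), 0.59 for MA (SE 0.06, adjusted p = 2.84e-07) and 0.53 for MetSA (SE 0.06, adjusted p = 1.37e-06). Of 11 tested neutrophil markers, 2 rose after each acid, the receptor Csf3r and the collagenase Mmp8, where 17.9% of all genes rose after IA, 10.1% after MA and 12.6% after MetSA. On total counts, a scale other than that of the Ncf1 values, the 12 listed markers summed to 179 to 240 CPM in M. They summed to 231 to 276 after IA, 271 to 286 after MA and 252 to 268 after MetSA. Csf3r made up 49.8% to 70.8% of the sum. Without Csf3r the sum was 77.9 to 121 CPM in M, with overlapping ranges of 79.6 to 115 after IA, 79.0 to 98.1 after MA and 83.6 to 109 after MetSA. Their part in the Ncf1 rise was not tested.

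Ncf4 encodes p40phox, which binds phosphatidylinositol 3-phosphate on the phagosome and holds the complex there. It had 117, 112 and 123 CPM in M, against 136, 137 and 137 with IA, 100, 113 and 115 with MA and 137, 128 and 127 with MetSA. It rose after IA by 0.22 on the log2 scale (SE 0.06, adjusted p = 0.00878), with all 3 IA values above all M values. That call was lost with upper-quartile scaling (0.13, adjusted p = 0.102). As TPM, the read density used further below, Ncf4 was at 232 ± 9.53 in M and 238 ± 1.87 in IA (SD, n = 3), and the groups overlapped. After MetSA the values also lay above M, at a log2 difference of 0.16 that did not pass the test (adjusted p = 0.0858), and after MA they overlapped M at -0.10 (adjusted p = 0.315).

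Rac2, the Rac GTPase of blood cells that switches on electron flow, was the member that fell. It had 190, 205 and 221 CPM in M and 147, 152 and 164 in MA, with no overlap, a change of -0.41 on the log2 scale (0.751-fold, SE 0.08, adjusted p = 0.000619). In MetSA it had 225, 239 and 275 CPM, all above M, and rose by 0.26 (SE 0.08, adjusted p = 0.0202). Replicate 3, the library that stood apart, was the highest, and without it the difference was 0.18 and did not pass the test (adjusted p = 0.0968). The call was also lost without M replicate 1 (0.21, adjusted p = 0.113) or M replicate 2 (0.26, adjusted p = 0.0595). In IA the values of 236, 217 and 249 CPM overlapped M at a log2 difference of 0.19 (adjusted p = 0.071, range 0.00967 to 0.375 over the alternatives). It was called with RLE scaling (adjusted p = 0.0464), without a filter (0.0422), with the 2 groups alone (0.0339), with DESeq2 (0.0497) and with the replicate block (0.00967). It was also called without M replicate 3 (0.24, adjusted p = 0.0325), IA replicate 2 (0.24, adjusted p = 0.044) or MetSA replicate 3 (0.19, adjusted p = 0.0317). As TPM, Rac2 was at 265 ± 14.97 in M, 265 ± 17.6 in IA and 288 ± 29.9 in MetSA (SD, n = 3). On that scale both IA and MetSA overlapped M.

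**Figure D1:**
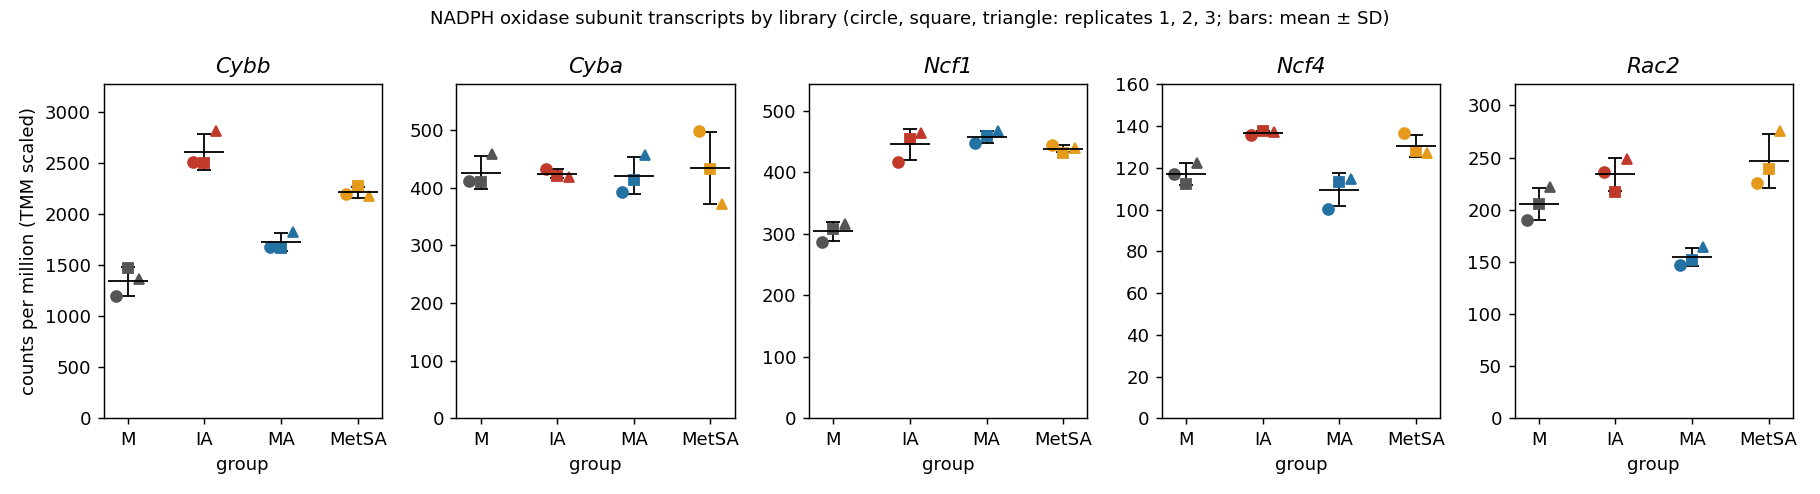
CPM of each subunit transcript (vertical axis, from 0, a different scale in each panel) in the 4 groups (horizontal axis). Points are libraries, and the horizontal bar and whiskers are the mean and SD of 3. Cybb steps up from M through MA and MetSA to IA, Ncf1 is at 417 to 467 CPM in all treated libraries against 287 to 316 in M, Cyba overlaps throughout, and Rac2 is lowest in MA.

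Counted over the members, 3 of 5 were called higher and 0 lower after IA (Cybb, Ncf1 and Ncf4), or 4 where Rac2 was called as above and 2 with upper-quartile scaling, where 35.2% of all tested genes were called, 17.9% higher and 17.3% lower. After MA 2 were higher (Cybb and Ncf1) and 1 lower (Rac2), where 20.3% of all genes were called, 10.1% higher and 10.1% lower. After MetSA 3 were higher (Cybb, Ncf1 and Rac2) and 0 lower, or 2 higher where Rac2 lost its call as above. There 21.2% of all genes were called, 12.6% higher and 8.53% lower. Groups that did not overlap, which 3 members showed for IA, 3 for MA and 4 for MetSA, were found for 47.7%, 35.6% and 33.7% of all genes. The median log2 fold change of the 5 members was 0.22 for IA, -0.02 for MA and 0.26 for MetSA, and that of all tested genes was -0.03, -0.02 and -0.01. These comparisons share the M libraries, so they are not independent of each other.

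The acids were then compared directly at their common dose and time, over 3 pairs. Between IA and MetSA, which differ by the double bond, 0 of 5 members were called in the main edgeR fit, which has no replicate block. In that fit 6.12% of all genes were called (3.97% higher and 2.15% lower after IA), and 25.8% did not overlap. At an unadjusted p under 0.05 Cybb alone was higher after IA, with no overlap between the groups (log2 difference 0.24, 95% interval 0.08 to 0.39, adjusted p = 0.0591). This Cybb difference was called with DESeq2 (adjusted p = 0.0177), RLE scaling (0.0423), no filter (0.0052) and the replicate number as a block (0.0152). Adjustment over all genes and all 6 comparisons together (0.0212) and the fit without M replicate 1 (0.0322) also called it. The highest adjusted p over the alternatives was 0.214, without IA replicate 3. For the other members the intervals of IA minus MetSA were -0.10 to 0.14 (Ncf1), -0.06 to 0.20 (Ncf4), -0.24 to 0.09 (Rac2) and -0.21 to 0.15 (Cyba).

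Malonic acid differed from both of the longer acids in the same 3 genes. Against MA, IA was higher by 0.60 in Cybb (SE 0.07, adjusted p = 1.75e-06), by 0.60 in Rac2 (SE 0.08, adjusted p = 4.63e-06) and by 0.32 in Ncf4 (SE 0.06, adjusted p = 0.000422), where 34.6% of all genes were called, 17.8% higher and 16.8% lower, and 49.6% did not overlap. Against MetSA, MA was at -0.36 in Cybb (SE 0.07, adjusted p = 0.000669), -0.68 in Rac2 (SE 0.08, adjusted p = 1.29e-06) and -0.25 in Ncf4 (SE 0.06, adjusted p = 0.00428), where 26.4% of all genes were called, 11.6% higher and 14.7% lower, and 38.8% did not overlap. For Ncf1 the interval was -0.16 to 0.08 for IA minus MA and -0.06 to 0.18 for MA minus MetSA. Ordered by level, Cybb ran M, MA, MetSA, IA, and each step but the last passed the test. Ncf1 had M below 3 acids whose differences did not pass. Ncf4 ran MA, M, MetSA, IA with no neighbouring step called. Rac2 ran MA, M, IA, MetSA, and of its neighbours MA and M differed.

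**Figure D2:**
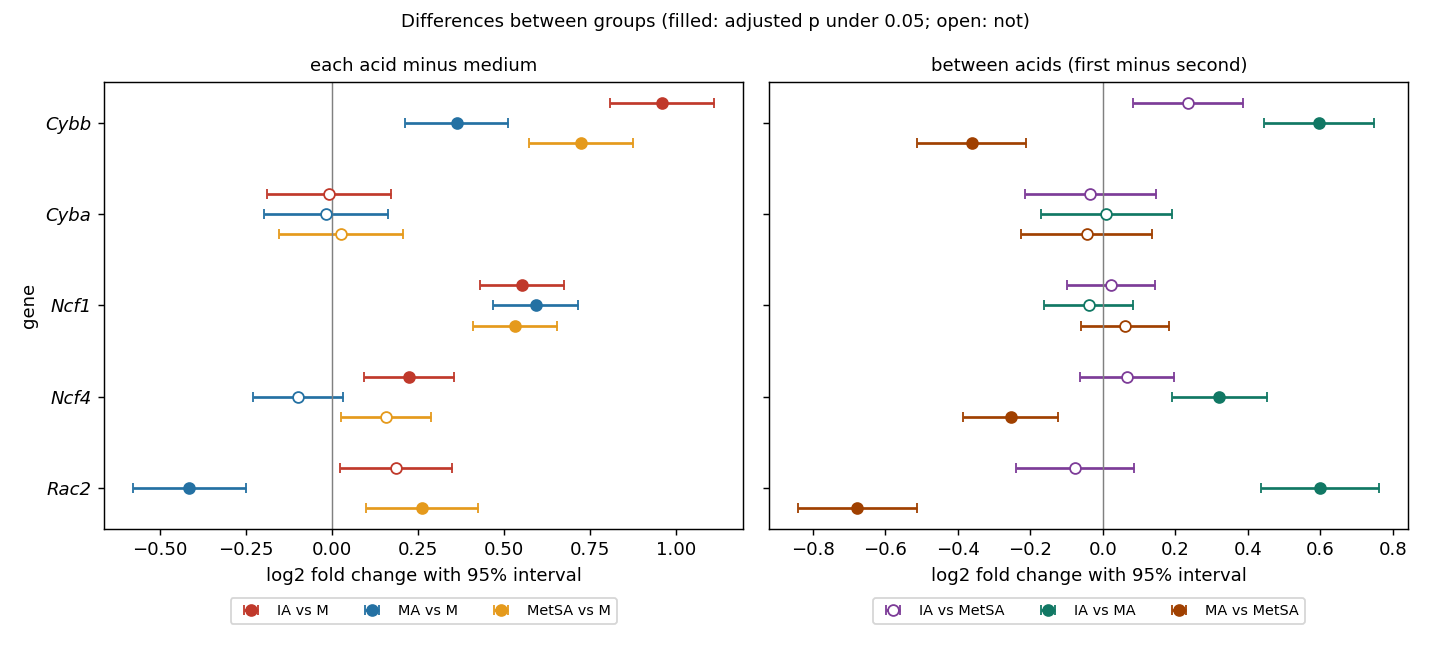
Log2 fold changes (horizontal axis) of the 5 genes (vertical axis) with 95% intervals from the edgeR fit, each acid minus medium on the left and between acids on the right. Filled points passed an adjusted p of 0.05. Cybb spreads from 0.36 to 0.96 against M while the 3 Ncf1 points lie between 0.53 and 0.59, and Rac2 has MA at -0.41.

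Levels of different genes were compared per length, as TPM, a read density on merged exon lengths scaled to the same total in each library. In M, Cyba was the most abundant member at 1641 ± 84.4 TPM (SD, n = 3), followed by Cybb at 924 ± 85.3, Ncf1 at 332 ± 10.6, Rac2 at 265 ± 14.97 and Ncf4 at 232 ± 9.53. The order of Rac2 and Ncf4 turned with the length of the longest transcript, at 207 and 246 TPM. Cyba ranked 55 and Cybb 112 in M among 32235 genes with a length. After IA Cybb ranked 56, at 1579 ± 91.3 TPM, and Cyba 72, at 1437 ± 43.5, but with the longest transcript Cyba stayed above Cybb, at 1551 against 1491 TPM.

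Ratios between subunits within a library do not depend on how libraries are scaled. The Cybb to Cyba ratio was 0.519, 0.643 and 0.531 in M, 0.763, 0.723 and 0.715 in MA, 0.789, 0.940 and 1.04 in MetSA and 1.04, 1.06 and 1.20 in IA. Every treated library was above every M library, and MetSA had the widest spread. In IA the ratio reflects both genes, with Cybb TPM above M and Cyba TPM below it. Longest-transcript lengths put the mean ratio in IA at 0.963, so only its change between groups, not its place above 1, is free of the length used. The Ncf4 to Ncf1 ratio went the other way, from 0.701 ± 0.041 in M to 0.558 ± 0.029 in IA, 0.540 ± 0.016 in MetSA and 0.434 ± 0.023 in MA (SD, n = 3). Rac2 against Rac1, the Rac protein found in most cells, was 0.831 ± 0.027 in M, 0.673 ± 0.011 in MA, 0.982 ± 0.085 in IA and 0.986 ± 0.024 in MetSA. In that ratio the 3 MA libraries lay below the 3 M libraries, and all IA and MetSA libraries lay above them. For IA the difference lay in Rac1, at 271 ± 8.23 TPM against 318 ± 8.11 in M, while Rac2 was at 265 TPM in both. The exons of Rac1 overlap those of Daglb on the opposite strand over 2309 bases, so its own level is uncertain.

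**Figure D3:**
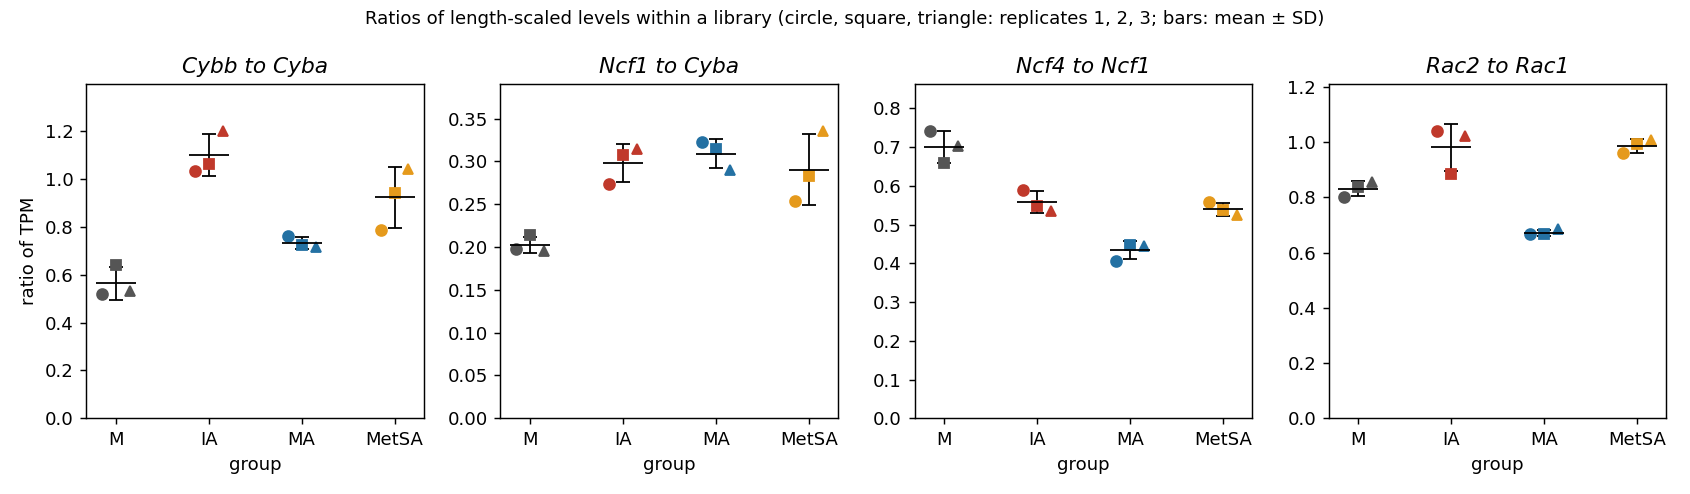
Ratio of the TPM of the first to the second gene in each library (vertical axis, from 0) by group (horizontal axis), with points for libraries and bars for the mean and SD of 3. Cybb to Cyba is 0.519 to 0.643 in M and 1.04 to 1.20 in IA, and Rac2 to Rac1 is lowest in MA.

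The partners of the complex differed from one another. Rac1 was not called against M, at -0.05 for IA, -0.11 for MA and 0.02 for MetSA, which turned to -0.05 with upper-quartile scaling. Cybc1, the chaperone needed for a stable gp91phox and p22phox pair, rose with IA (from 82.1 ± 1.91 to 99.4 ± 2.88 CPM, log2 fold change 0.28, adjusted p = 0.000546) and MetSA (99.1 ± 2.25 CPM, 0.27, adjusted p = 0.00111), and was 80.6 ± 1.13 CPM in MA. Nrros, known to promote breakdown of gp91phox, fell with MA from 347 ± 10.7 to 238 ± 12.2 CPM (-0.54, adjusted p = 6.17e-07) and rose with MetSA (0.22, adjusted p = 0.00869, or 0.0585 with upper-quartile scaling).

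Hvcn1 encodes the proton channel that balances the charge the oxidase moves. It had 25.3, 22.4 and 23.4 CPM in M, 34.5, 32.2 and 35.2 in MA, 16.8, 18.8 and 19.0 in IA and 21.7, 21.9 and 21.0 in MetSA. MA was above every M library (0.52, adjusted p = 5.11e-05) and IA below every M library (-0.38, adjusted p = 0.000776), and the direct difference of IA minus MA was -0.90 (SE 0.08, adjusted p = 2.07e-08). Exons of Hvcn1 overlap Tctn1 on the opposite strand over 1574 bases, and Tctn1 had 421 to 702 counts against 788 to 1849 for Hvcn1. Of 7 listed partners 1 rose and 2 fell after IA (Cybc1, Hvcn1 and Rac3), 2 rose and 2 fell after MA (Hvcn1, Prdx6, Nrros and Rac3), and 2 rose after MetSA (Cybc1 and Nrros), or 1 rose and 1 fell with upper-quartile scaling. Over all tested genes 35.2% were called for IA, 20.3% for MA and 21.2% for MetSA. Without IA replicate 3, 2 rose after IA, and without MetSA replicate 3, 1 fell after MetSA. Their median log2 fold changes were -0.05, -0.08 and 0.02.

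Of 9 genes for NOX1, NOX3, NOX4, the DUOX enzymes and their subunits, 7 had at most 12 counts in any library and were not tested. Nox1, with 15 to 102 counts, went from 1.62 ± 0.31 CPM in M to 0.585 ± 0.32 in MA (-1.47, SE 0.35, adjusted p = 0.00485).

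Of 14 kinases that act before assembly, 2 rose and 2 fell after IA, 1 rose and 3 fell after MA, and 0 rose and 2 fell after MetSA, beside the 35.2%, 20.3% and 21.2% of all genes called. These small counts moved with single libraries. After IA 1 rose without M replicate 2 or 3, and 1 fell without M replicate 2 or IA replicate 3. After MA 2 rose without M replicate 1, 1 fell without M replicate 2, IA replicate 3, MA replicate 1 or MA replicate 2, and 5 fell without MetSA replicate 3. After MetSA 0 fell without M replicate 1 or MetSA replicate 1, and 1 without M replicate 2, IA replicate 3 or MetSA replicate 2. Prkcb, a protein kinase C that phosphorylates p47phox, rose with IA (0.29, adjusted p = 0.000631) and MA (0.22, adjusted p = 0.0117). Pik3cd, a phosphoinositide 3-kinase subunit of leukocytes, fell with MA from 171 ± 6.94 to 118 ± 5.42 CPM (-0.54, adjusted p = 6.72e-06), and Akt1 fell with IA (-0.32, adjusted p = 0.000376) and with MetSA (-0.20, adjusted p = 0.0254). The latter call was lost without M replicate 1 (0.137), MetSA replicate 1 (0.117) or MetSA replicate 2 (0.0617).

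Among 15 exchange factors and inhibitors of Rac, 4 rose and 5 fell after IA, 3 rose and 7 fell after MA, and 1 rose and 5 fell after MetSA. Of all genes 17.9% were called higher and 17.3% lower for IA, 10.1% and 10.1% for MA, and 12.6% and 8.53% for MetSA. The 7 falls after MA were 4 without M replicate 1, 2 or 3, MA replicate 1 or MA replicate 2, and the 5 after MetSA were 3 without M replicate 1 or MetSA replicate 3, where 3 rose without MetSA replicate 3. Vav3, a Rac exchange factor, fell with MA (-0.46, adjusted p = 4.22e-05), where Abr, which turns Rac off, rose (0.46, adjusted p = 4.22e-06). Arhgap25, a Rac inhibitor of phagocytes, fell with all 3 acids (-0.46 for IA, -0.29 for MA and -0.41 for MetSA). Racgap1, which also serves in cell division, fell most with IA (-1.34, SE 0.11, adjusted p = 8.27e-09).

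Of 8 tested transcription factors known to act on oxidase genes, 4 rose and 1 fell after IA, 4 rose and 0 fell after MetSA, and 2 rose and 4 fell after MA, or 2 fell without MA replicate 1. Of all genes 35.2% were called for IA, 21.2% for MetSA and 20.3% for MA. With upper-quartile scaling 3 fell after IA and 1 after MetSA, and without MetSA replicate 3, 1 fell after MetSA. Irf1, an interferon-induced factor, rose from 70.5 ± 2.04 CPM to 190 ± 18.8 in IA (1.43, adjusted p = 3.68e-11) and 145 ± 10.4 in MetSA (1.04, adjusted p = 9.04e-09) and fell to 57.2 ± 4.30 in MA (-0.30, adjusted p = 0.00818, or 0.0594 without MA replicate 1). Elf1 rose with IA (0.49) and MetSA (0.34). Cebpa, a regulator of myeloid genes, went the other way, with a rise after MA (0.81, adjusted p = 2.08e-08) and a fall after IA (-0.36, adjusted p = 0.000253). Irf8, a myeloid factor of Cybb, rose after all 3 acids (0.41 for IA, 0.30 for MA and 0.40 for MetSA). Spi1, which encodes PU.1 and was named outside the rule for its role, fell with MA (-0.28, adjusted p = 0.00472).

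**Figure D4:**
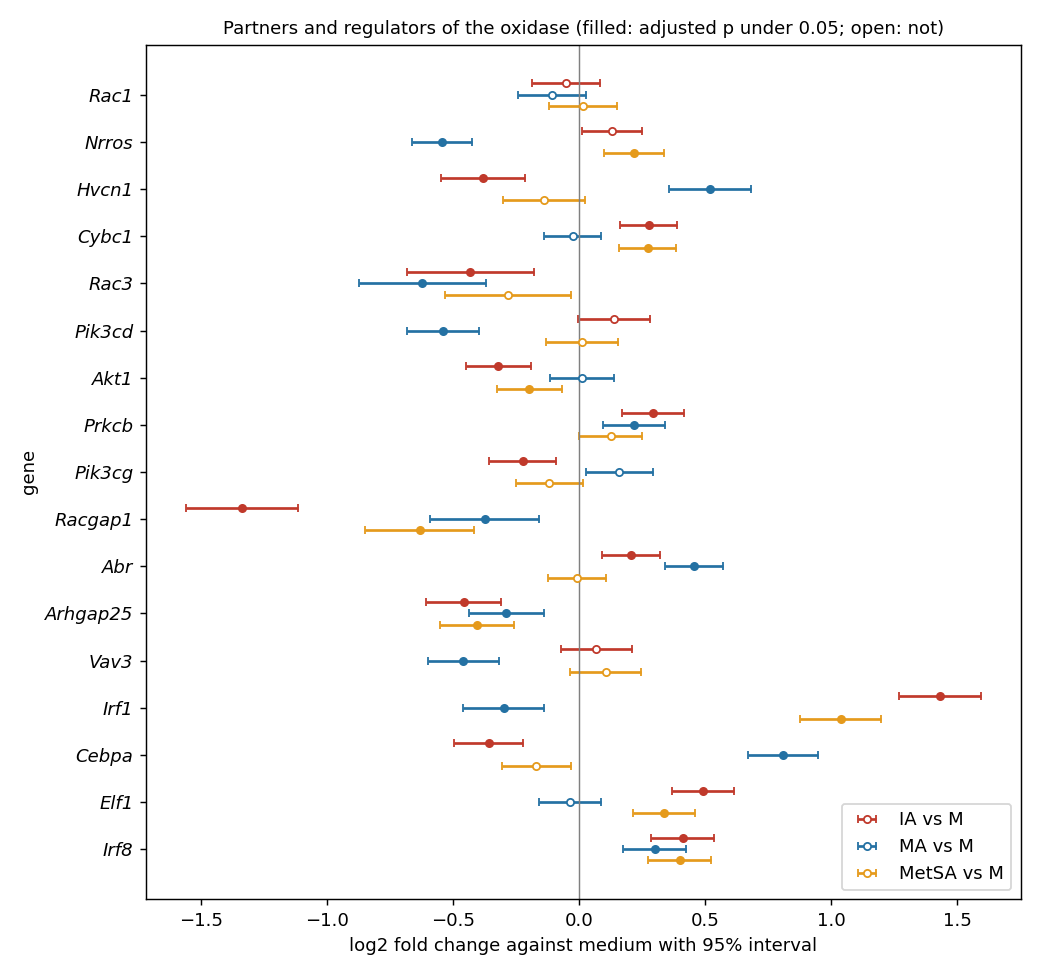
Log2 fold changes against medium (horizontal axis) with 95% intervals for partners, kinases, Rac regulators and transcription factors of the oxidase (vertical axis, top to bottom), coloured by acid. Filled points passed an adjusted p of 0.05. Irf1 is at 1.43 for IA, 1.04 for MetSA and -0.30 for MA, and Hvcn1 and Cebpa have MA to the right of 0 and IA to the left.

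Other genes whose log2 CPM followed each member most closely were ranked over the 12 libraries among 8140 genes with at least 10 CPM, as a description in which the 4 groups set most of the likeness. Cybb was most like the glycosyltransferase gene B3gnt2 (Pearson r = 0.986), followed by Selenot (0.985) and Hacd4 (0.980). Ncf1 was most like Ctsh, a lysosomal cysteine protease (0.987), which had a log2 fold change of 0.81 for IA, 0.92 for MA and 0.74 for MetSA, then Csf3r (0.973) and the chemokine Cxcl16 (0.973). Ncf4 was followed by Pstpip1 (0.970), Rasa4 (0.969) and Csk, an inhibitory Src-family kinase regulator (0.967). Rac2 was followed by Adgre1, the macrophage marker F4/80 (0.977), Dhrs1 (0.969) and Pou2f2 (0.968). Adgre1 fell after MA (from 2628 ± 81.6 to 1948 ± 62.4 CPM, -0.43) and rose after MetSA (0.27) and IA (0.19), while of the 10 macrophage markers 6 rose and 1 fell after IA, 2 rose and 2 fell after MA, and 7 rose and 1 fell after MetSA, beside 35.2%, 20.3% and 21.2% of all genes called. The part of these markers in the Rac2 difference was not tested. The closest genes to Cyba had lower likeness, led by the complex I subunit Ndufa8 (0.896), and none of its 3 was called against M.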

How the data were processed

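The deposited values are raw counts per gene that the authors did not normalise. The submitters' processing notes list mm10, STAR and featureCounts, while versions, annotation and strand setting were not given in sources used here, so reads of genes that overlap on opposite strands cannot be told apart. Of counts from 1 to 9, 66.1% were even, so both mates of a pair may have been counted, and halved counts were tried. All 12 columns were matched to samples by name and 32158 genes had a symbol. Genes passing filterByExpr were scaled by TMM and fitted over all 4 groups with edgeR 4.0.16 (R 4.3.3; glmQLFit with robust estimation, glmQLFTest, 8 residual degrees of freedom, no covariate). A call is an adjusted p below 0.05 (Benjamini-Hochberg, 14113 genes). SEs and 95% intervals are those of this fit. CPM values of single genes use TMM library sizes, while marker sums use total counts.

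Alternatives were DESeq2 1.42.0, limma-voom (limma 3.58.1), RLE and upper-quartile scaling, no filter, a stricter filter (10 CPM in 3 libraries), the 2 groups alone, the replicate number as a block, halved counts, adjustment over 6 comparisons and leaving out each library. The members and lists were chosen with earlier results of these data known. Named genes are the members, from each list the 4 called genes with the lowest adjusted p against M, Rac1, Cybc1 and Hvcn1, and the 3 genes most like each member. Marker genes, Spi1 and, in a count, Prdx6 were named outside that rule. Some listed genes are not reported here. The split of the neutrophil sum was added after seeing the data.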

Additional observations from a re-analysis of the deposited data

How the results depend on the processing

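Of 30 member differences (5 genes in 6 comparisons), 17 kept their direction and side of the threshold under all 22 alternatives. The number of members called between IA and MetSA was 1 in place of 0 with RLE scaling, without a filter, with the replicate block, with DESeq2 and with adjustment over 6 comparisons, and 0 to 1 when leaving out a library, each time Cybb. Differences that reversed were all near 0. For Cyba in IA against M they were 0.0102 with RLE scaling, 0.00956 with the 2 groups alone and 0.0101 with DESeq2. With upper-quartile scaling Cyba was at -0.0377 in MetSA against M, -0.0646 in IA against MA and 0.00597 in MA against MetSA, Ncf1 at -0.00436 in IA against MetSA and Rac1 at -0.0463 in MetSA against M. With the stricter filter Cyba was at -0.0244 in IA against MA.

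Leaving out a library gave Cyba ranges of -0.0357 to 0.0477 (IA against M), -0.0793 to 0.0378 (MA against M), -0.0831 to 0.126 (MetSA against M), -0.133 to 0.0755 (IA against MetSA), -0.0367 to 0.0717 (IA against MA) and -0.144 to 0.0656 (MA against MetSA). It gave -0.137 to 0.00889 for Rac2 in IA against MetSA, -0.0566 to 0.00634 for Ncf1 in IA against MA and -0.0535 to 0.0578 for Rac1 in MetSA against M. Over the 5 pathway lists together, 17 genes fell after MA (10 to 20 when leaving out a library, 10 without MA replicate 1) and 7 after MetSA (3 to 7, with 3 without M replicate 1 and 4 without MetSA replicate 1). With longest-transcript lengths the TPM in M was 1757 for Cyba, 246 for Ncf4 and 207 for Rac2, and the Cybb to Cyba ratio was 0.494 in M, 0.963 in IA and 0.642 in MA.

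Replicate numbers did not meet the rule for pairing, with same-number correlations of 0.0122 to 0.169 and 2 of 18 above 0.1. Even so, all 18 were positive and 12 of 12 libraries correlated best with their own number. The numbers may therefore pair the libraries, which the main fit leaves out. With the replicate block Cybb in IA against MetSA (0.23, adjusted p = 0.0152) and Rac2 in IA against M (0.19, adjusted p = 0.00967) were called, and kinases that fell after MA were 5 in place of 3. Upper-quartile scaling moved the share of calls that were higher from 50.9% to 34.8% for IA against M and from 59.7% to 42.2% for MetSA against M, and lost Ncf4 in IA (0.13, adjusted p = 0.102) and Rac2 in MetSA (0.20, adjusted p = 0.0891). With the 2 groups alone Rac2 in MetSA was at 0.26 (adjusted p = 0.056). The 95% intervals of Cyba against M ran from -0.20 to 0.21.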

Other observations

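Ncf4 and Rac2, 2 of the 5 members, lie 296587 bases apart on chromosome 15. Over the 12 libraries their log2 CPM values had a Pearson r of 0.803, the highest among the 10 pairs of members, against 0.767 for Cybb with Ncf1 and 0.064 for Cybb with Cyba. These values describe libraries that share 4 groups, and no test was made. Of the 13 genes of the table between Ncf4 and Rac2, 6 were tested. The nearest to Ncf4, the cytokine receptor chains Csf2rb2 and Csf2rb, rose after MA by 0.36 (adjusted p = 0.00016) and 0.31 (adjusted p = 0.000274), where Ncf4 was at -0.10 and Rac2 at -0.41. These 2 receptor genes also rose after IA, by 0.39 and 0.23. They were looked at after the values of the members were seen.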
